A study of Mus musculus with 21 samples.

Results

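The genes described here encode the mitochondrial respiratory chain and the ATP synthase that it drives, in mouse cells cultured at 4 stages of pluripotency. They were taken by symbol from the deposited gene table: Nduf, Uqcr, Sdha to Sdhd, Cox4 to Cox8 and Atp5 genes of the nucleus, and the protein-coding Nd, Co, Cytb and Atp genes of the mitochondrial genome. Genes whose symbol marks them as pseudogenes were left out, and a gene needed at least 30 counts summed over the 21 libraries. Of 39396 genes in the table, 111 matched and 108 were kept, 95 nuclear and 13 mitochondrial. The 3 below the minimum were Ndufa11b with 1 count, Cox8b with 2 and Cox6a2 with 10, and the lowest of those kept were Cox8c with 96 counts and Cox4i2 with 309. The nuclear genes comprise 39 complex I subunits, 8 complex I assembly factors, 4 subunits of complex II, 8 of complex III, 19 of complex IV and 17 of complex V, the ATP synthase. These include Ndufb4c and Ndufs6b in complex I and Cox6c2 in complex IV, which match by symbol but are annotated as processed pseudogenes in GENCODE M21. Of these 3, Ndufb4c and Ndufs6b were called, in EPL against naive cells only, where both were lower. All 108 passed the filter on low counts and were tested among 16575 genes.

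Complexes I to IV pass electrons from NADH and succinate to oxygen. Complexes I, III and IV pump protons across the inner mitochondrial membrane as they do so, and complex V uses the proton gradient to make ATP. Most subunits are encoded in the nucleus and imported, whereas the mitochondrial genome supplies core membrane subunits of complexes I, III, IV and V, so each of these complexes needs transcripts from both genomes. Mouse embryonic stem cells are known to respire and to use glycolysis, and primed cells of the later epiblast are known for relying more on glycolysis.

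The cells fall into 7 groups of 3 libraries each. Both lines, D3 and A2, are mouse embryonic stem cells (mESCs), and their ground-state cultures held serum, 1000 U/mL leukaemia inhibitory factor (LIF), a MEK inhibitor and a GSK3 inhibitor. Naive cells had spent 4 days without the inhibitors. EPL cells (early primitive ectoderm-like) were derived out of the ground state by 4 days in 400 uM L-proline, with LIF lowered to 330 U/mL. Epiblast stem cells (EpiSCs) exist for A2 alone. A2 cells were implanted in a pseudopregnant mouse, recovered after implantation and then grown in serum replacement plus activin A and basic FGF, so stage, medium and passage through a host cannot be told apart in that group. The labels do not call the libraries of a group separate cultures. The spread that p-values rest on may therefore be technical.

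Library totals ran from 15320599 to 23490527 counts. Levels are given in CPM, counts per 1000000 counts of the TMM-scaled library. Several libraries stood apart over these genes. The second D3 naive library was the highest of its group for 94 of the 95 nuclear genes, the third A2 EpiSC library was the lowest of its group for 87 of them, and the second A2 ground library was the highest of its group for all 13 mitochondrial genes. The A2 EpiSC libraries carried 2307 to 3047 CPM summed over 10 fibroblast or stromal markers, none of which was at 0, against 5.52 to 13.2 CPM in any other library. Their 5 EpiSC markers summed to 573 to 825 CPM, against at most 197 CPM elsewhere, and their 5 general pluripotency markers to 1118 to 1444 CPM, against at least 2397 CPM elsewhere. Their part in the EpiSC results was not tested. In such bulk samples, fewer cells of a type and less RNA per cell cannot be told apart.

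Sequences bear on what a mitochondrial count means here, because GRCm38 holds near-identical nuclear copies of several mitochondrial genes, most of them in a block of chromosome 1 between 24611535 and 24616197. For this reason 3 pairs are shown as read on the coding strand of the mitochondrial gene, with capitals for the bases that differ. The first pair is a stretch of mt-Nd3 at chrM:9459-9578 on the plus strand and its copy Gm28438 at chr1:24613000-24613119 on the minus strand, which differ at 1 base of 345 over the whole gene.
mt-Nd3: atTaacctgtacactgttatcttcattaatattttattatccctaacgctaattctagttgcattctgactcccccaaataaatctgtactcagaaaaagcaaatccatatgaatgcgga
Gm28438: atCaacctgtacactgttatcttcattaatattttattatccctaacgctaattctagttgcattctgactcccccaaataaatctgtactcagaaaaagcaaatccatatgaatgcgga
The second pair is the stretch of mt-Co1 that differs most from Gm13340, a copy on chromosome 2, with mt-Co1 at chrM:6501-6620 on the plus strand and Gm13340 at chr2:22588355-22588474 on the minus strand. It has 6 differences, and the whole gene has 37 in 1545 bases.
mt-Co1: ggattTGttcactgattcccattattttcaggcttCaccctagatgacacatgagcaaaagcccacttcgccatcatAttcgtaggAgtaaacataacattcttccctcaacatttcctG
Gm13340: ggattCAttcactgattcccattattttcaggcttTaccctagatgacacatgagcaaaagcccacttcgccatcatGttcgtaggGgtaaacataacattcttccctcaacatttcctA
The third pair is the start of mt-Co2 at chrM:7013-7072 on the plus strand and of Gm28661 at chr1:24615506-24615565 on the minus strand, which have 0 differences in 681 bases.
mt-Co2: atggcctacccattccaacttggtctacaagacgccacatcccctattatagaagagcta
Gm28661: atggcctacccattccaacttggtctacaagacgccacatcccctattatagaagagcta
A read from mt-Co2 fits both places equally well, and over all libraries the copy held 79803 counts against 19687 for mt-Co2 itself. For mt-Atp6, mt-Co3, mt-Nd3 and mt-Nd4l the copies likewise held more counts than the genes. The pattern was the opposite for mt-Co1, with 3522954 counts against 74202 in its chromosome 1 copy Gm29216, and for mt-Nd4, with 533557 against 19409 in Gm28439. Both of these copies are partial, matching 483 of 1545 bases of mt-Co1 and 876 of 1378 of mt-Nd4. The copies that held more counts than their genes span nearly the whole gene, such as 678 of 681 bases for mt-Atp6. Gm13340, shown above, held 2314 counts. Apart from mt-Atp8, the genes with more counts than their copies, or with no copy found, are mt-Nd1, mt-Nd2, mt-Nd4, mt-Nd5, mt-Nd6, mt-Cytb and mt-Co1, and these 7 are given together below. No near-identical copy was found for mt-Atp8, which is given on its own because it overlaps mt-Atp6 by 43 bases and had 5145 counts in all. Only annotated pseudogenes were searched, however. The copies of its neighbours mt-Atp6 and mt-Co2 leave a gap at chr1:24614651-24614885, and whether an unannotated copy of mt-Atp8 lies there was not tested.

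Among the nuclear genes, promoters are shown for 3 genes from different complexes whose RNA was lower in EPL cells and EpiSCs than in ground-state cells and whose promoter holds the palindromic motif of NRF1, a transcription factor known to act at many respiratory genes. Each runs from 250 bases before to 50 after the transcription start in RefSeq, GRCm38.p6, with the motif in capitals. Ndufaf5 lies at chr2:140170396-140170695 on the plus strand, Cox6a1 at chr5:115348909-115349208 on the minus strand and Uqcrc1 at chr9:108936398-108936697 on the plus strand.
Ndufaf5: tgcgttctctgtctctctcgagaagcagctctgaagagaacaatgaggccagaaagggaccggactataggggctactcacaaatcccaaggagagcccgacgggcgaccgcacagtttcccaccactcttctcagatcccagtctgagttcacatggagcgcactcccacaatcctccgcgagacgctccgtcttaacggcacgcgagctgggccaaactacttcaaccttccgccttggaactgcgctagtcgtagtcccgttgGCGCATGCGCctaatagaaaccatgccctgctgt
Cox6a1: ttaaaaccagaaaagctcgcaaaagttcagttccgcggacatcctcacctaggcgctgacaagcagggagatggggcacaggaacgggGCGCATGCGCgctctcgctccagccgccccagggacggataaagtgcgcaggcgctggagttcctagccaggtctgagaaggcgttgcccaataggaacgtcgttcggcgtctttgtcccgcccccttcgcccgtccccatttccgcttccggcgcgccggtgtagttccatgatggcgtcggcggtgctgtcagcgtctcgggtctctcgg
Uqcrc1: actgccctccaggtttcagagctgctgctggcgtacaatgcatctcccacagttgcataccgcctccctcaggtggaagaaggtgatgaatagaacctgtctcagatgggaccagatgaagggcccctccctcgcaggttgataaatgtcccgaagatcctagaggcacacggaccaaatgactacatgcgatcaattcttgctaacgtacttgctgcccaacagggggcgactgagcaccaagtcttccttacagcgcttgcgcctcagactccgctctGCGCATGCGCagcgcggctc
A promoter entry was matched for 75 of the 95 nuclear genes. The motif was found on either strand in 7 of them, 9.33%, the other 4 being Atp5g2, Atp5k, Ndufa11 and Ndufaf4. It was found in 1.07% of all 27025 genes with a promoter entry, which were not limited to the genes tested here. A motif of the factor YY1 was in 6, 8%, against 0.995% of all genes with an entry. The GABPA motif CCGGAAGTG was in 2, 2.67% against 2.25%, and the ERR motif TCAAGGTCA in 2, 2.67% against 0.466%. Both strands were searched for each, and these matches describe letters in a window only.

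Per kilobase of exon, the highest levels belonged to mitochondrial messages: mt-Co1, the catalytic subunit of complex IV, had a mean of 5576 CPM per kilobase over the 21 libraries, mt-Nd1 3527 and mt-Cytb 2927. The highest nuclear genes on the same scale were Atp5b at 578 and Atp5a1 at 467 CPM per kilobase, the beta and alpha subunits of the ATP synthase head. Levels differed by at most 2-fold between groups for most nuclear genes. The ratio of the highest to the lowest group mean had a median of 1.64, was under 1.5 for 26 genes, 1.5 to 2 for 56 and over 2 for 13. The A2 EpiSC group held the lowest mean for 76 of the 95 nuclear genes, and the D3 naive group, which includes its high second library, held the highest for 36. The mitochondrial genes were ordered differently, with the lowest mean in D3 EPL cells for 11 of 13 and in A2 EPL cells for the other 2.

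Summed over the 95 nuclear genes, D3 libraries had 14720, 14100 and 15670 CPM in the ground state, 13390, 17330 and 13910 as naive cells and 12170, 12590 and 14270 as EPL cells. The A2 libraries had 14230, 14260 and 15180 CPM in the ground state, 13050, 14970 and 13300 as naive cells, 13810, 12540 and 13130 as EPL cells and 10400, 10640 and 8968 as EpiSCs. All 3 EpiSC sums lay below every other library. The 13 mitochondrial genes summed to 19920, 25220 and 25850 CPM in D3 ground cells, 20060, 15490 and 23200 in D3 naive cells and 18610, 13740 and 12010 in D3 EPL cells. In A2 they summed to 24740, 34850 and 19460 CPM in ground cells, 24410, 21050 and 17550 in naive cells, 13610, 16500 and 18730 in EPL cells and 22430, 24270 and 21640 in EpiSCs. The mitochondrial sums were most spread in A2 ground cells, and EPL sums were the lowest group means in both lines. The ratio of the mitochondrial to the nuclear sum was 1.60 ± 0.22 in D3 ground, 1.35 ± 0.41 in D3 naive and 1.15 ± 0.35 in D3 EPL cells, and 1.82 ± 0.59 in A2 ground, 1.53 ± 0.30 in A2 naive, 1.24 ± 0.23 in A2 EPL cells and 2.28 ± 0.13 in A2 EpiSCs (SD, n = 3 each).

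**Figure D1:**
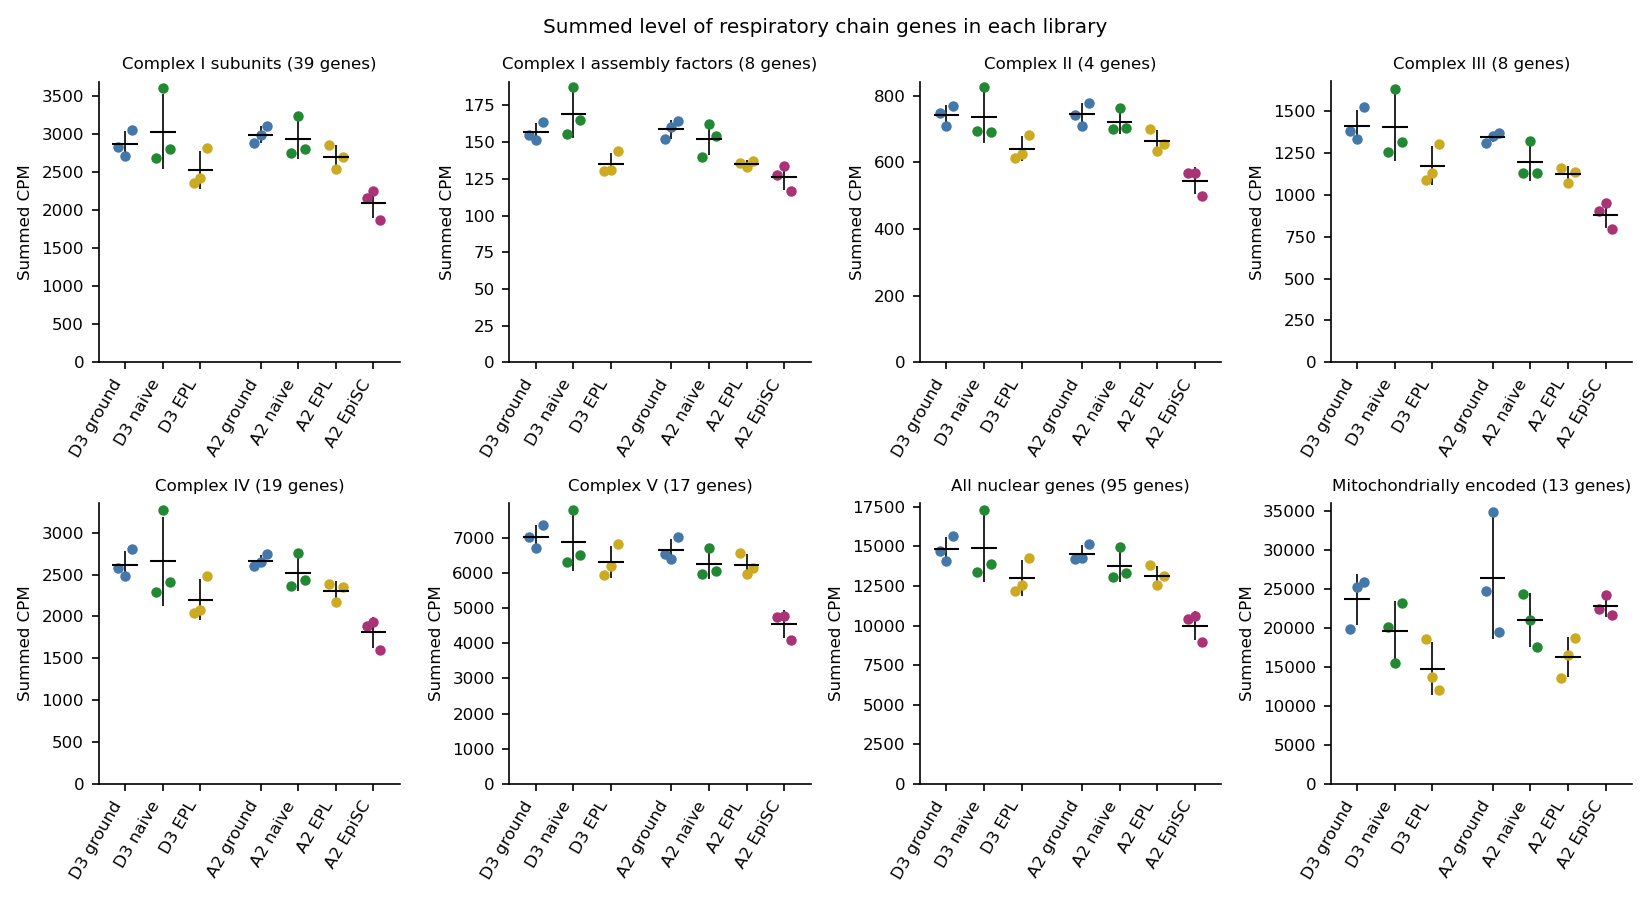
Summed CPM of the nuclear genes of each complex and of the mitochondrial genes, by line and stage, with 1 point per library and the bar at the group mean with its SD. The nuclear sums of the A2 EpiSC libraries lie lowest, at 8968 to 10640 CPM, while their mitochondrial sums, at 21640 to 24270 CPM, do not.

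Withdrawal of the inhibitors, naive against ground-state cells, moved individual nuclear genes in both directions with no common shift. In the edgeR quasi-likelihood test at an adjusted p below 0.05, 18 of 95 nuclear genes were higher (18.9%) and 18 lower (18.9%), against 31.7% of all tested genes higher and 31.8% lower. Their median log2 difference was -0.02, against 0.01 over all genes. Without the high second D3 naive library, 16 were higher and 31 lower, and without the third D3 naive library 11 were lower. The shares of all tested genes for these leave-outs are not given here. In D3 alone 16 nuclear genes rose and 8 fell, against 26.3% and 27.3% of all genes, and in A2 alone 9 rose and 18 fell, against 25.1% and 25.9%. On total-count scaling 27 rose and 11 fell, against 36% and 27.7% of all genes. Of the 13 mitochondrial genes, 4 fell (30.8%, against 31.8% of all genes) and none rose, with 0 at an unadjusted p below 0.05 and 0 in DESeq2. Without the second A2 ground library, 2 fell and 1 rose, and without the second D3 naive library 3 fell and 1 rose. In D3 alone 2 fell, and in A2 alone 0 (5 at an unadjusted p below 0.05). mt-Co1 was at -0.44 and mt-Nd4l at -0.47, and mt-Nd4l was not called without either of those libraries (-0.35 in each case).

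The clearest complex I changes at this step were in single genes. Ndufb11b, by its symbol a paralogue of the membrane-arm subunit Ndufb11, had 16.9, 19.3 and 15.9 CPM in D3 naive cells against 6.69, 5.39 and 6.95 CPM in D3 ground cells. In A2 it had 9.46, 11.3 and 10.8 CPM in naive cells against 5.11, 5.47 and 5.38 CPM in ground cells. The groups did not overlap in either line, and the log2 difference was 1.22 ± 0.09 (SE, edgeR adjusted p = 5.27e-11). A near-identical copy on chromosome X, Gm9050, held a further 16.7% of its counts. Ndufb11 itself did not pass the test at this step (0.01, edgeR adjusted p = 0.902).

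Among the assembly factors, which build complex I and are not part of it, 3 rose and 1 fell. The one that fell was Ndufaf5, which in human cells hydroxylates an arginine of a complex I core subunit. Ndufaf5 (ENSMUSG00000027384, chromosome 2, 140170649 to 140203689, plus strand, GRCm38) had 16.5, 21.8 and 17.8 CPM in D3 naive cells against 23.1, 22.5 and 29.3 CPM in D3 ground cells, and 13.9, 18.6 and 17.2 CPM in A2 naive cells against 26.9, 28.9 and 29.9 CPM in A2 ground cells. All naive libraries lay below all ground libraries of the same line, with a log2 difference of -0.60 ± 0.09 (edgeR adjusted p = 3.15e-06). Ndufaf2 rose by 0.38 on the log2 scale and Ndufaf7, a methyltransferase of a complex I core subunit in human cells, by 0.32.

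Complexes II, III and V had median log2 differences of -0.01, -0.10 and -0.05. Single complex V genes ran from -0.23 to 0.52, with 2 called higher and 2 lower. Sdha, the flavoprotein of complex II, fell by 0.16 on the log2 scale. In complex III the Rieske iron-sulphur protein Uqcrfs1 rose by 0.23 and the small subunits Uqcrb and Uqcr10 fell by 0.39 each. In complex V, Atp5g1, one of the genes for the c-ring, fell by 0.23, a call lost without the third D3 naive library (-0.15, edgeR adjusted p = 0.0691).

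Complex IV showed the largest movements of this step. Cox7a1, the isoform known from heart and skeletal muscle, had 1.94, 2.83 and 2.49 CPM in D3 naive cells against 6.58, 8.27 and 7.72 CPM in D3 ground cells, and 2.19, 2.79 and 2.54 CPM in A2 naive cells against 4.11, 3.48 and 3.75 CPM in A2 ground cells. Naive libraries were lower in both lines without overlap, and the log2 difference was -1.11 ± 0.13 (edgeR adjusted p = 1.08e-07). Cox6b1, a subunit facing the intermembrane space, fell by 0.48, Cox5a by 0.43 and Cox6a1 by 0.27, whereas Cox4i1, the ubiquitous form of subunit IV, rose by 0.31.

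Among the 10 subunits followed at every step, Ndufs1 (0.21), Uqcrfs1 and Cox4i1 were higher and Cox5a and Sdha lower in naive than in ground cells. Ndufv1 (0.15, edgeR adjusted p = 0.0499) was called higher, a call lost without any one of 8 libraries, with values of 0.13 to 0.17. Uqcrc1 (-0.15) was called lower, a call lost without the third A2 naive (-0.13), the third D3 ground (-0.13), first D3 naive (-0.14) or the third D3 naive library (-0.11). Sdhb (0.13), Atp5a1 (-0.08) and Atp5b (-0.05) did not pass the test.

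In EPL cells, most mitochondrial genes and many nuclear genes were lower than in ground-state cells. Against ground-state cells, 45 of the 95 nuclear genes fell (47.4%) and 5 rose (5.26%), against 33.2% of all tested genes lower and 33.1% higher. Their median log2 difference was -0.16, against 0.00 over all genes. Of the 13 mitochondrial genes 11 fell (84.6%) and none rose (0 at an unadjusted p below 0.05, 0 in DESeq2), with a median of -0.57. On total-count scaling 37 nuclear genes fell and 10 rose, against 29% and 37.4% of all genes. In D3 alone 35 nuclear genes fell and 5 rose, against 28.4% and 29.4% of all genes, and in A2 alone 31 fell and 5 rose, against 27.6% and 27.2%. For the mitochondrial genes, 9 fell in D3 and 10 in A2. By complex, 19 of 39 complex I subunits, 3 of 8 assembly factors, 3 of 4 complex II, 5 of 8 complex III, 7 of 19 complex IV and 8 of 17 complex V genes fell. The risers were the assembly factor Ndufaf7 and the complex IV genes Ndufa4l2, Cox4i2, Cox8c and Cox6b2.

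Against naive cells, with which EPL cells share serum and LIF but not the LIF dose or the added proline, 48 nuclear genes fell (50.5%) and 3 rose (3.16%), against 24.1% of all tested genes lower and 27.1% higher. The median was -0.18 for nuclear and -0.45 for mitochondrial genes, against 0.01 over all genes, and 8 of 13 mitochondrial genes fell (61.5%) and none rose (0 at an unadjusted p below 0.05, 0 in DESeq2). Without the second D3 naive library, 31 nuclear genes fell and 4 rose, the shares of all tested genes for that leave-out not being given here. In D3 alone 33 nuclear genes fell and 0 rose (3 at an unadjusted p below 0.05), against 20.4% and 24.4% of all genes. In A2 alone 12 fell (12.6%) and 1 rose (1.05%), against 16.1% and 16.8%, so the share that fell was below that of all genes. Of the mitochondrial genes, 3 fell in D3 alone and 0 in A2 alone (5 at an unadjusted p below 0.05). With both lines, the mitochondrial count was 5 without the first A2 EPL library, 4 without the third D3 naive library and 5 without the third D3 EPL library. The comparisons of EPL with ground, EPL with naive and naive with ground cells share libraries, so their counts are not independent.

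Cox5a, a nuclear subunit of complex IV on the matrix side, fell at both steps. Cox5a (ENSMUSG00000000088, chromosome 9, 57521274 to 57532426, plus strand) had 289.7, 274 and 298 CPM in D3 ground cells, 197, 267 and 194 in D3 naive and 134, 134 and 155 in D3 EPL cells. In A2 it had 261, 251 and 271 CPM in ground cells, 179, 203 and 185 in naive cells, 160.3, 140.4 and 154 in EPL cells and 139.5, 151 and 116 in EpiSCs. Libraries of the ground, naive and EPL stages did not overlap within either line, the high second D3 naive library included. The log2 difference was -0.91 ± 0.08 between EPL and ground cells (edgeR adjusted p = 3.69e-10) and -0.48 ± 0.08 between EPL and naive cells (edgeR adjusted p = 1.63e-05).

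Ndufaf5 followed the same order of stages. It had 12.4, 10.2 and 11.8 CPM in D3 EPL cells and 12.4, 11.9 and 12.4 CPM in A2 EPL cells, below every naive and ground library of the same line given above. The difference was -1.17 ± 0.09 from ground cells (edgeR adjusted p = 1.09e-10), a 2.25-fold lower level, and -0.57 ± 0.09 from naive cells (edgeR adjusted p = 2.36e-05). Ndufaf4 fell by 0.34 from naive cells and Ndufaf6 by 0.41 from ground cells, while Ndufaf7 rose by 0.34 from ground cells.

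Ndufb8 and Ndufb4, accessory subunits of the membrane arm, were among the complex I genes that fell. Ndufb8 had 70.5, 74.2 and 92.3 CPM in D3 EPL cells against 109, 156 and 139 CPM in D3 naive cells, and 87.2, 71.5 and 83.7 CPM in A2 EPL cells against 110.2, 156 and 119 CPM in A2 naive cells. The groups did not overlap, and the log2 difference was -0.72 ± 0.10 from naive and -0.56 ± 0.10 from ground cells (edgeR adjusted p = 6.15e-06 and 5.92e-05). Ndufb4 fell by 0.65 from ground cells. Ndufb11b had 5.06, 6.09 and 5.91 CPM in D3 EPL cells and 3.66, 4.47 and 5.01 CPM in A2 EPL cells, so that the rise after inhibitor withdrawal was not seen in EPL cells. Its difference was -1.44 ± 0.09 from naive cells (edgeR adjusted p = 2.96e-11) and -0.21 ± 0.10 from ground cells (edgeR adjusted p = 0.0579). The core subunits Ndufs1 (0.06) and Ndufv1 (0.10) did not pass the test from ground cells, and Ndufs1 fell by 0.16 from naive cells.

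Genes of complexes II and III also fell. In complex III, Uqcr10 (chromosome 11, 4701973 to 4704342, minus strand) had 79.3, 74.8 and 104 CPM in D3 EPL and 84.8, 88.2 and 93.7 CPM in A2 EPL cells, against 138, 139.6 and 159.5 CPM in D3 ground and 149.9, 164 and 151 CPM in A2 ground cells. That is a log2 difference of -0.78 ± 0.10 with no overlap (edgeR adjusted p = 2.70e-07). Uqcrb fell by 0.52 and Uqcrc1, a core protein, by 0.24 from ground cells. In complex II, Sdha fell by 0.16, Sdhb by 0.26 and Sdhd by 0.24 from ground cells, and Sdhc (-0.16, edgeR adjusted p = 0.0651) did not pass. Sdhb fell by 0.39 and Sdhc by 0.34 from naive cells.

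In complex V, Atp5g1 (chromosome 11, 96068852 to 96075670, minus strand) had 110.3, 111 and 119 CPM in D3 EPL and 133, 133 and 133 CPM in A2 EPL cells, against 175, 176 and 186 CPM in D3 ground and 185, 183 and 195 CPM in A2 ground cells. It fell without overlap by 0.58 ± 0.07 on the log2 scale (edgeR adjusted p = 3.66e-07), and near-identical copies held a further 29.7% of its counts. Atp5mpl, a small membrane subunit, fell by 0.48. The catalytic subunits Atp5a1 (0.01) and Atp5b (-0.12) did not pass the test against ground cells or against naive cells (0.09 and -0.07).

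**Figure D2:**
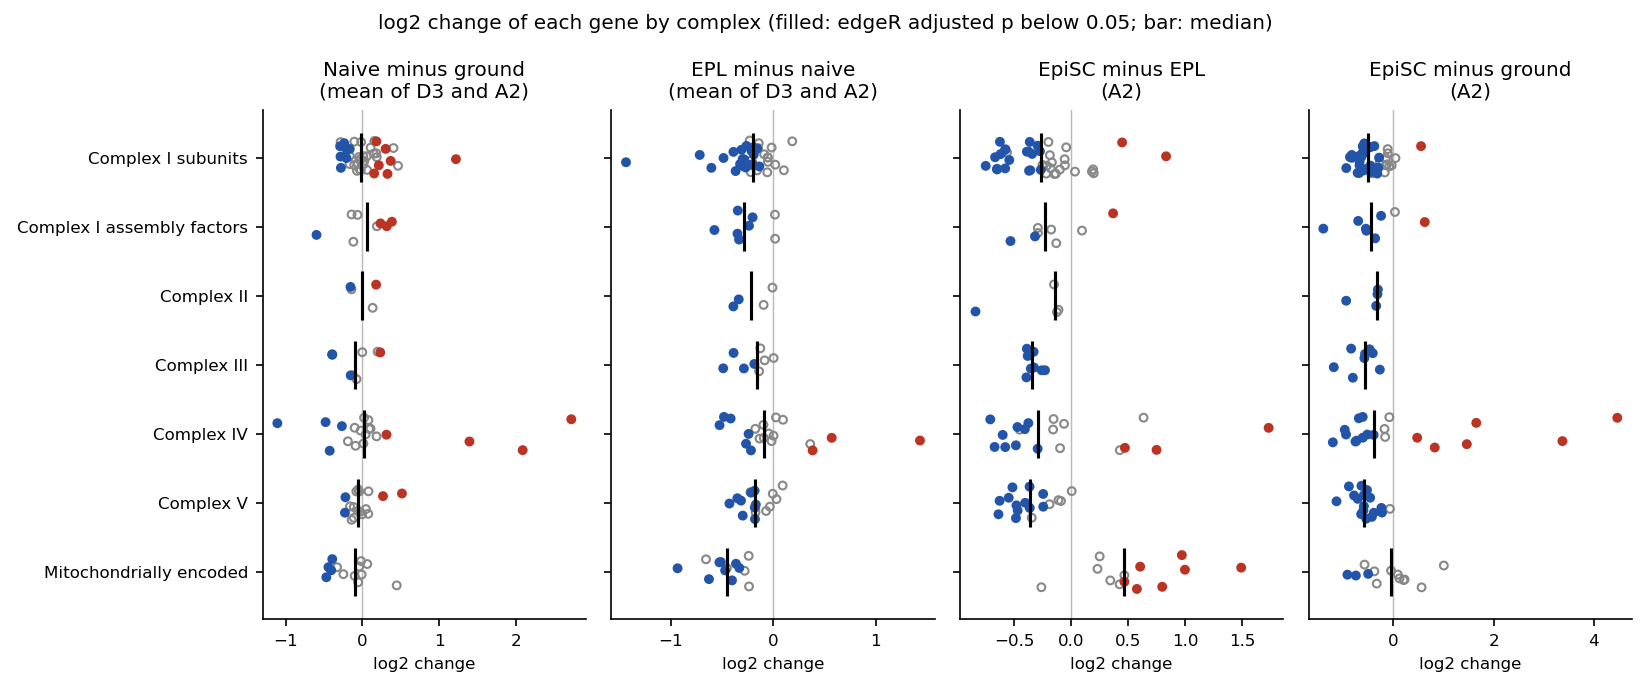
Log2 difference of each gene, 1 point per gene, by complex for nuclear genes and in a row of their own for mitochondrial genes, for naive minus ground, EPL minus naive, EpiSC minus EPL and EpiSC minus ground cells. Filled points passed at an edgeR adjusted p below 0.05, red higher and blue lower, and the bar is the median: the nuclear medians lie below 0 in all but the naive minus ground panel, and the mitochondrial median is -0.45 in EPL minus naive and 0.47 in EpiSC minus EPL cells.

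EpiSCs held the lowest nuclear levels of A2. Against EPL cells, 51 of 95 nuclear genes fell (53.7%) and 6 rose (6.32%), against 31.3% of all tested genes lower and 39.1% higher, and the median log2 difference was -0.30 against 0.07 over all genes. Against ground cells, 71 fell (74.7%) and 8 rose (8.42%), against 34.1% lower and 39.1% higher of all genes, with a median of -0.52 against 0.04. Scaling to total counts in place of TMM raised the median of all genes by 0.21 in the comparison with EPL cells and by 0.26 in that with ground cells. On that scale 25 nuclear genes fell (26.3%) and 10 rose against EPL cells, with a median of -0.09, where 21.9% of all genes fell and 48.1% rose, so the share that fell was near that of all genes. Against ground cells 45 fell (47.4%) and 10 rose, with a median of -0.26, where 22.1% of all genes fell and 50% rose. Without the third EpiSC library, the low one, 35 nuclear genes fell against EPL cells and 63 against ground cells. The fibroblast and other marker levels given above moved with every EpiSC result, and their part in it was not tested.

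By complex, every one of the 8 complex III genes fell against both EPL and ground cells, as did 12 of 17 complex V genes against EPL and 16 of 17 against ground cells. In complex I, 19 of 39 subunits fell against EPL and 27 against ground cells, and in complex IV 9 of 19 genes against EPL and 10 against ground cells. In complex II, Sdhc alone fell against EPL cells and all 4 genes fell against ground cells. The assembly factors fell in 2 of 8 against EPL and 6 of 8 against ground cells, and Ndufaf7 rose in both comparisons. Without the third EpiSC library, 2 of the 8 complex III and 9 of the 17 complex V genes fell against EPL cells, and 8 complex III and 13 complex V genes against ground cells. On total-count scaling 1 complex III and 6 complex V genes fell against EPL cells, and 5 complex III and 11 complex V genes against ground cells.

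Catalytic and core subunits were among the genes that fell in EpiSCs. Ndufs1, a core subunit of complex I that carries iron-sulphur clusters (ENSMUSG00000025968, chromosome 1, 63143596 to 63176833, minus strand), had 147, 147 and 137 CPM in EpiSCs against 220.1, 226 and 217 CPM in A2 EPL cells, without overlap, a log2 difference of -0.62 ± 0.06 (edgeR adjusted p = 2.88e-09). Ndufv1, the NADH-binding subunit, fell by 0.54 and Ndufa5 by 0.67.

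Sdhc (ENSMUSG00000058076, chromosome 1, 171127165 to 171150603, minus strand) had 99.2, 101 and 84.9 CPM in EpiSCs against 183, 157 and 173 CPM in A2 EPL cells and 179, 181 and 188 CPM in A2 ground cells. The EpiSC libraries lay below all others, with a difference of -0.85 ± 0.11 from EPL cells (edgeR adjusted p = 2.54e-07) and -0.94 ± 0.10 from ground cells (edgeR adjusted p = 4.34e-08). Sdha (-0.13) and Sdhb (-0.15) did not pass the test against EPL cells, and their values were 0.08 and 0.05 on total-count scaling. Against ground cells Sdha fell by 0.31 and Sdhb by 0.34, the Sdhb call being lost without the third EpiSC library (-0.26, edgeR adjusted p = 0.0519).

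In the ATP synthase, Atp5b had 1796, 1762 and 1526 CPM in EpiSCs against 2526, 2325 and 2423 CPM in EPL cells, a difference of -0.52 ± 0.08 with no overlap (edgeR adjusted p = 4.75e-06). Atp5a1 had 1146, 1128 and 969 CPM in EpiSCs against 1680, 1544 and 1520 CPM in EPL cells, a difference of -0.55 ± 0.08 (edgeR adjusted p = 1.79e-06). Both subunits of the catalytic head were lower in every EpiSC library. Atp5g1 fell by 0.64 and Atp5h, of the peripheral stalk, by 0.63 against EPL cells, and near-identical copies of these genes held a further 29.7% and 15.4% of their counts.

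In complex III, Uqcrc1 was lower in EpiSCs than in EPL cells by a log2 difference of -0.39 ± 0.08 (edgeR adjusted p = 1.35e-04). Uqcr10 (-0.39) and Uqcrfs1 (-0.23) also fell against EPL cells. Without the third EpiSC library, Uqcr10 was at -0.30 and Uqcrfs1 at -0.19 and neither passed, as neither did without 1 A2 EPL library, the third for Uqcr10 (-0.35) and the first for Uqcrfs1 (-0.19). Uqcrfs1 was also not called without the first EpiSC library (-0.24). Against ground cells Uqcr10 had a difference of -1.19 ± 0.14 (edgeR adjusted p = 8.57e-08).

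In complex IV, Cox6b1 had 88.5, 91.8 and 81.6 CPM in EpiSCs against 141, 124 and 133 CPM in EPL and 195, 198 and 213 CPM in ground cells. It was lower than EPL cells by a log2 difference of -0.60 ± 0.12 (edgeR adjusted p = 8.35e-05) and than ground cells by -1.21 ± 0.12 (edgeR adjusted p = 4.02e-09), without overlap in either case. Cox7b fell by 0.71, Cox5b by 0.67 and Cox6a1 by 0.58 against EPL cells. Cox4i1 (-0.10) and Cox5a (-0.16) did not pass the test in that comparison, and their values were 0.11 and 0.04 on total-count scaling, although Cox5a fell by 0.95 against ground cells.

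A few complex I genes were higher in EpiSCs than in EPL cells. Ndufb11b had 8, 7.39 and 8 CPM in EpiSCs against 3.66, 4.47 and 5.01 CPM in EPL cells, a log2 difference of 0.83 ± 0.13 (edgeR adjusted p = 1.06e-05). Ndufb7, an accessory subunit, had 73.6, 75.6 and 63.1 CPM in EpiSCs against 53.6, 50.1 and 52.2 CPM in EPL cells, a difference of 0.45 ± 0.13 (edgeR adjusted p = 0.00342). A2 EPL cells had its lowest group mean, and Ndufb7 was not raised against A2 ground cells (-0.15, not called). Ndufaf7 had 28.3, 30.3 and 27.1 CPM in EpiSCs against 22.2, 22.1 and 22.1 CPM in EPL and 16.7, 19.4 and 19.4 CPM in ground cells. Its EpiSC libraries were above all others of A2, and the difference from ground cells was 0.63 ± 0.09 (edgeR adjusted p = 1.18e-06).

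**Figure D3:**
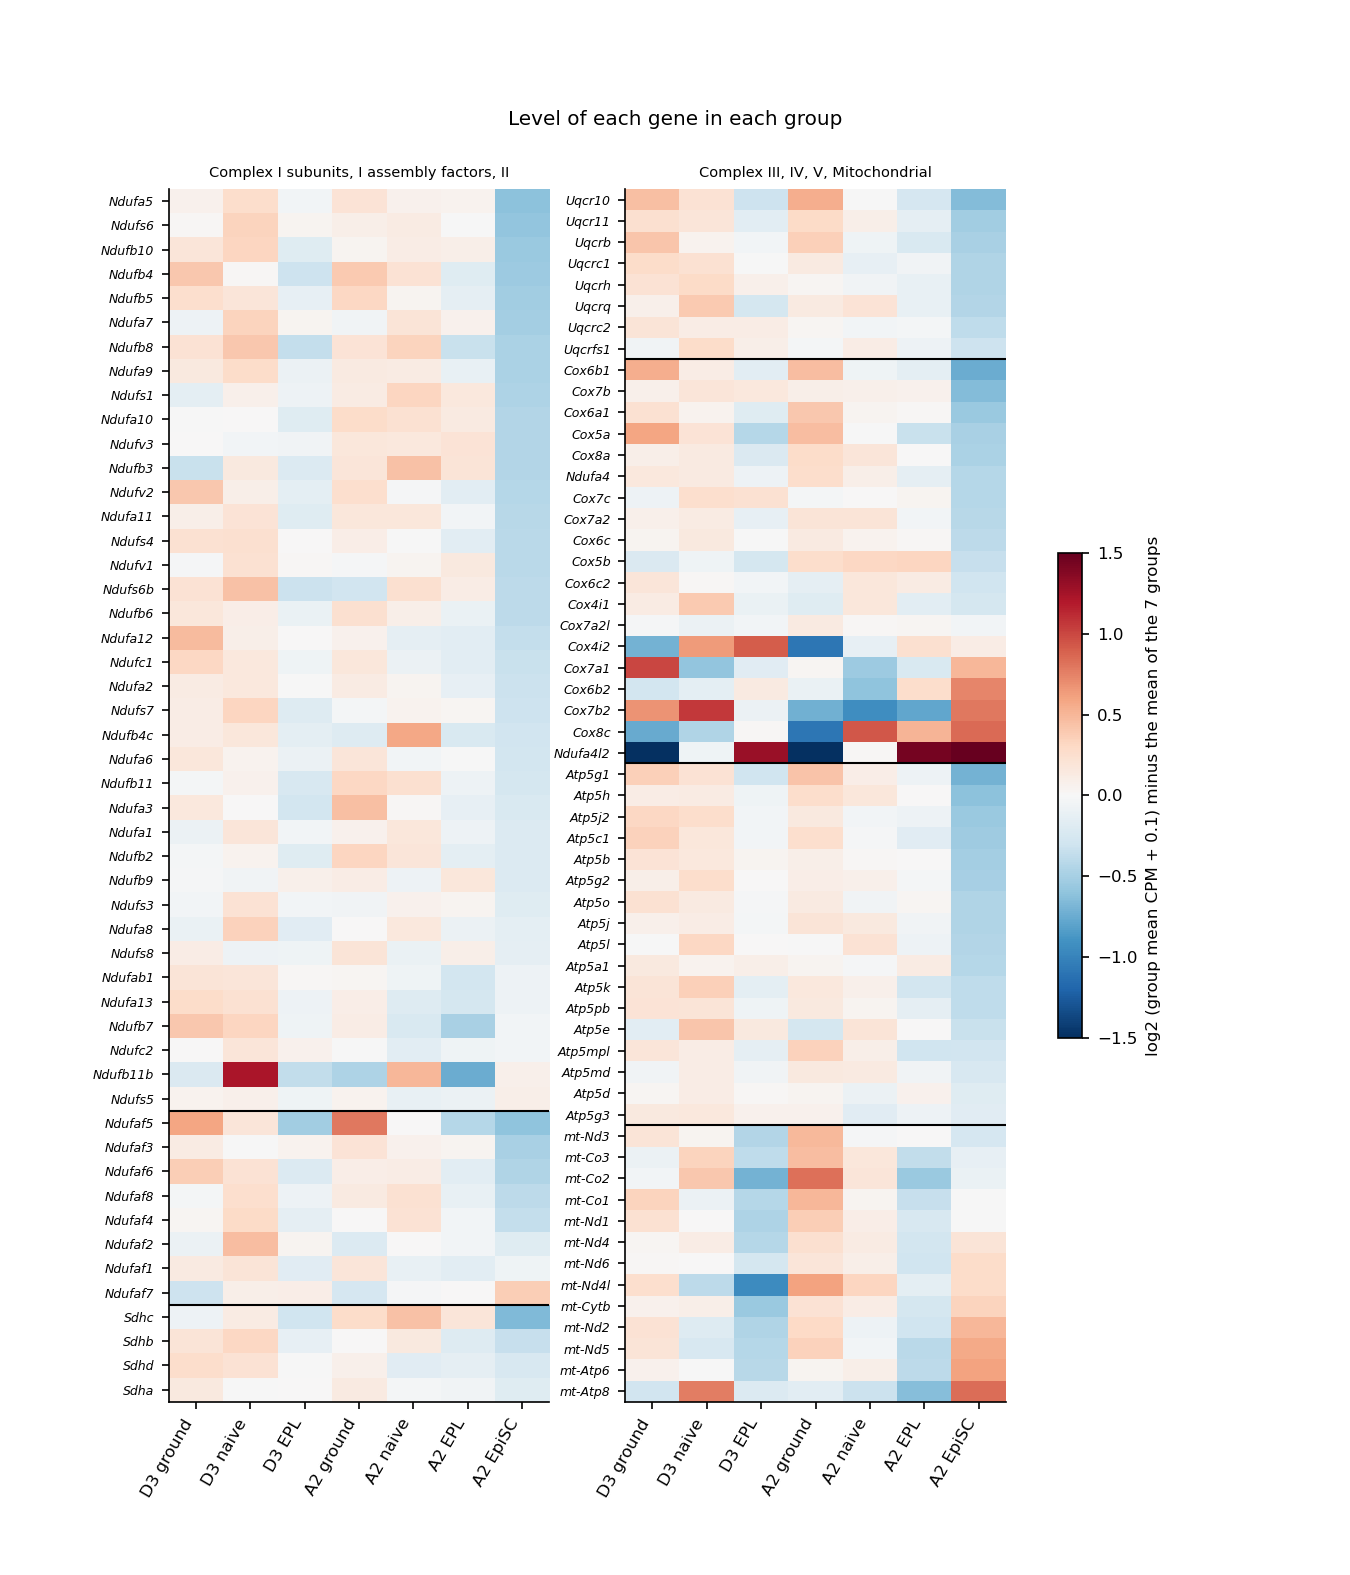
Level of 107 of the genes in each group as log2 of the mean CPM plus 0.1, minus the mean of the 7 groups, with genes in rows by class and colours limited at 1.5. Most nuclear rows are lowest in A2 EpiSCs, and the mitochondrial rows are lowest in EPL cells.

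Several complex IV subunits exist as isoforms, and several of the rarer forms rose where most of the chain fell. Per kilobase, the ubiquitous forms dominated in every group: Cox4i1 averaged 258 CPM per kilobase in A2 EpiSCs and 273 in A2 ground cells, while Cox4i2 averaged 0.937 in EpiSCs and 0.338 in A2 ground cells. For subunit VIb, Cox6b1 averaged 285 CPM per kilobase in A2 ground cells, 187 in A2 EPL cells and 123 in EpiSCs, and Cox6b2, the isoform known from testis, 29.7 in ground cells, 38 in EPL cells and 52.6 in EpiSCs. The gap between the isoforms per kilobase was smallest in EpiSCs among these 3 groups. In D3, Cox6b1 averaged 186 CPM per kilobase in EPL and 302 in ground cells, and Cox6b2 34.8 in EPL and 26.3 in ground cells.

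Cox6b2 (chromosome 7, 4751792 to 4753094, minus strand) had 57.9, 59 and 57.9 CPM in EpiSCs against 41, 38.2 and 47.1 CPM in A2 EPL cells. All EpiSC libraries were higher, with a log2 difference of 0.47 ± 0.12 (edgeR adjusted p = 0.00121). In EPL cells it was higher than in ground cells by 0.38 ± 0.09 and than in naive cells by 0.57 ± 0.09 (edgeR adjusted p = 4.50e-04 and 9.70e-06). An 8-gene list of male germ cell markers summed to 162 to 189 CPM in EpiSCs, against 31.9 to 56.3 CPM in any other library, and its part in the EpiSC result was not tested.

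Ndufa4l2, a paralogue of the complex IV subunit Ndufa4 that is known as a hypoxia-induced gene, had the largest differences from ground cells of all 108 genes in EPL cells and EpiSCs (ENSMUSG00000040280, chromosome 10, 127514967 to 127517154, plus strand). It had 0.101, 0 and 0.602 CPM in D3 ground cells, 1.49, 2.44 and 1.77 in D3 naive cells and 4.93, 5.22 and 4.97 in D3 EPL cells. The library at 0 allows up to 0.139 CPM for 3 counts, a limit that covers counting error only. In A2 it had 0.189, 0.332 and 0.652 CPM in ground cells, 2.31, 2.01 and 1.75 in naive cells, 7.2, 4.47 and 5.01 in EPL cells and 14.1, 11.5 and 0.375 in EpiSCs. Ground, naive and EPL libraries were separated in both lines, while the EpiSC libraries split, the third being at the ground level. The log2 difference was 2.73 ± 0.71 for naive against ground, 1.43 ± 0.45 for EPL against naive and 4.16 ± 0.62 for EPL against ground cells (edgeR adjusted p = 0.00203, 0.0114 and 3.76e-06). EpiSCs against EPL cells gave 0.63 ± 0.55 (edgeR adjusted p = 0.305), and 1.19 without the third EpiSC library (edgeR adjusted p = 0.000325). Even so the gene stayed rare, at 5.08 CPM per kilobase in A2 EPL cells beside 105 for Ndufa4. Ndufa4 itself fell by 0.32 in EPL against ground cells and by 0.30 in EpiSCs against EPL cells. The Ndufa4l2 exons share 32 bases with Shmt2 on the opposite strand, and the libraries do not record the strand.

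Cox7a1 took a path of its own. It had 2.59, 3.02 and 4.2 CPM in D3 EPL and 3.19, 2.96 and 3.26 CPM in A2 EPL cells, against 6.58, 8.27 and 7.72 CPM in D3 ground and 4.11, 3.48 and 3.75 CPM in A2 ground cells, a log2 difference of -0.73 ± 0.13 (edgeR adjusted p = 2.35e-05). In EpiSCs it had 5.42, 5.87 and 4.5 CPM, above every A2 EPL library, a difference of 0.75 ± 0.18 (edgeR adjusted p = 6.75e-04). The difference of 0.47 between EpiSCs and ground cells was not called without the second EpiSC library (0.37, edgeR adjusted p = 0.0802) or the second A2 ground library (0.42, edgeR adjusted p = 0.0575), and the EPL to naive difference of 0.39 was not called without the first A2 naive (0.34), first D3 naive (0.32) or the third D3 EPL library (0.27). Summed over 10 striated muscle markers, levels were 20.3 to 26.5 CPM in D3 EPL and 17.7 to 24.9 CPM in A2 EPL cells, against 52.3 to 56.8 CPM in D3 ground and 40.4 to 43.7 CPM in A2 ground cells, with no marker at 0 throughout any of these groups. They were 28.0 to 52.8 CPM in D3 naive and 32.0 to 54.6 CPM in A2 naive cells, and 22.1 to 25.7 CPM in EpiSCs. The sum was thus lower where Cox7a1 was lower in EPL against ground cells, and its part in that result was not tested.

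The remaining rare isoforms rest on few reads. Cox7b2, known from testis, had 125 counts summed over the 3 EpiSC libraries against 27 in A2 EPL cells, a log2 difference of 1.73 ± 0.27 with no overlap (edgeR adjusted p = 5.80e-06). Its level was not particular to EpiSCs, since D3 naive cells had the highest group mean, 2.16 CPM. The D3 naive libraries had 33, 46 and 37 counts and the D3 ground libraries 34, 36 and 27, beside 44, 38 and 43 in EpiSCs. Cox8c, also known from testis, had 2 counts in A2 ground, 27 in A2 naive and 16 in A2 EPL cells and 30 in EpiSCs. Its differences were 2.19 ± 0.58 for EPL against ground (edgeR adjusted p = 0.00209) and 3.37 ± 0.75 for EpiSCs against ground cells (edgeR adjusted p = 3.63e-04). With 2 counts in the A2 ground group these fitted values depend on how low counts are handled: the ratio of the summed counts per library size, EpiSCs over A2 ground cells, was 12.1 with an exact 95% interval of 3.07 to 104.6, for counting error only. Cox4i2, the form known from lung and low oxygen, differed by 1.76 ± 0.43 between EPL and ground cells (edgeR adjusted p = 0.00105). For EpiSCs against ground cells its difference of 1.47 ± 0.64 was lost without the first EpiSC (1.02), second EpiSC (1.26), first A2 ground (1.14) or second A2 ground library (1.37, edgeR adjusted p = 0.105 or above in each case).

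The c-ring of the ATP synthase is encoded by 3 genes that give the same mature protein. Against A2 ground cells, Atp5g1 differed in EpiSCs by -1.14 ± 0.11, Atp5g2 by -0.59 ± 0.10 and Atp5g3 by -0.24 ± 0.10 (edgeR adjusted p = 2.20e-09, 2.45e-05 and 0.0341), and the Atp5g3 value turned to 0.02 on total-count scaling. Its call was also lost without the third EpiSC (-0.20), first A2 ground (-0.25) or the third A2 ground library (-0.19). Per kilobase Atp5g3 was the highest of the 3 in every group, at 122 CPM per kilobase in EpiSCs and 144 in A2 ground cells, while Atp5g1 was at 17.4 in EpiSCs and 38.3 in A2 ground cells. The paralogues Cox7a2l and Cox7a2 of complex IV also parted: in EpiSCs against ground cells Cox7a2 fell by 0.61, and Cox7a2l (-0.17, edgeR adjusted p = 0.127, and 0.10 on total-count scaling) did not pass. Cox8a, the ubiquitous subunit VIII, fell by 0.76.

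**Figure D4:**
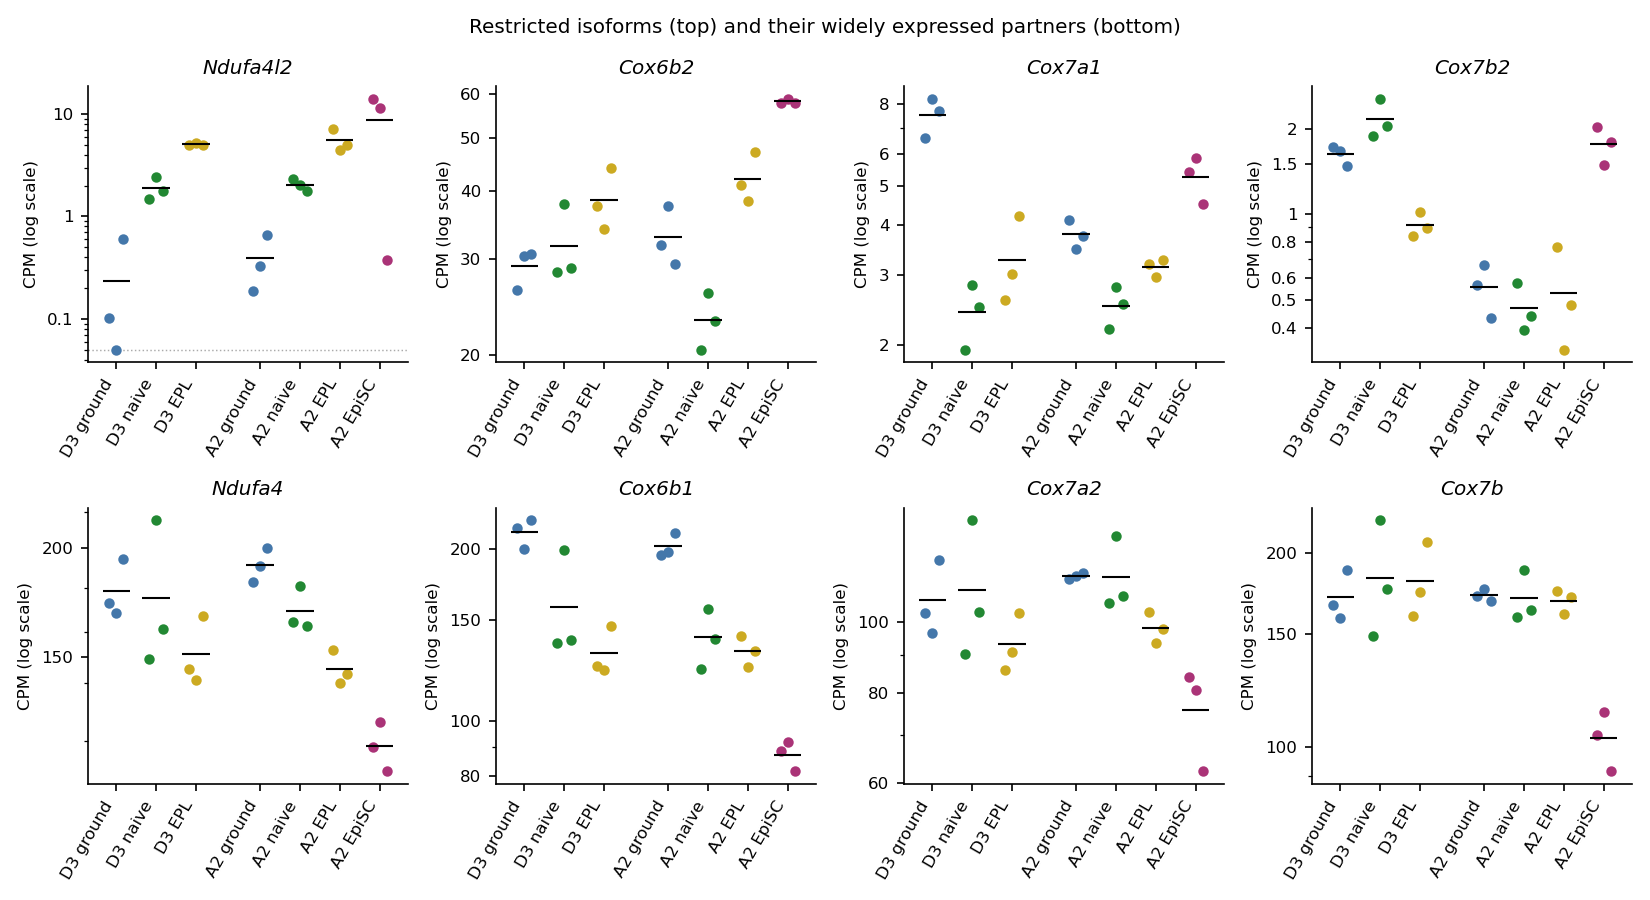
CPM on a log axis of paired isoforms by library, line and stage, with a dotted line at 0.05 CPM where a library at 0 is drawn. Ndufa4l2 climbs from ground to EPL cells in both lines and splits in EpiSCs between 0.375 and 14.1 CPM, and Cox6b2 is highest in EpiSCs while Cox6b1 is lowest there.

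Mitochondrial genes of complexes I, III and IV fell in EPL cells. In complex V, mt-Atp6 summed with its chromosome 1 copy did not pass against ground cells (-0.29 ± 0.13, edgeR adjusted p = 0.0613). It was lower against naive cells (-0.37 ± 0.13, edgeR adjusted p = 0.026). mt-Nd5, a proton-pumping subunit of complex I (mitochondrial genome, 11742 to 13565, plus strand), had 1580, 1350 and 1101 CPM in D3 EPL and 1168, 1373 and 1550 CPM in A2 EPL cells, against 1785, 2247 and 2180 CPM in D3 ground and 2171, 2978 and 1721 CPM in A2 ground cells. The groups did not overlap within either line, and the log2 difference was -0.69 ± 0.12 (edgeR adjusted p = 4.56e-05). mt-Co1 (5328 to 6872, plus strand) had 7832, 5723 and 5211 CPM in D3 EPL and 5685, 6585 and 7555 CPM in A2 EPL cells, against 8879, 11510 and 11520 CPM in D3 ground and 11270, 15610 and 8762 CPM in A2 ground cells, also without overlap, a difference of -0.81 ± 0.14 (edgeR adjusted p = 2.73e-05). The 7 genes grouped above all fell against ground cells, from mt-Nd6 (-0.39, and -0.25 without the second A2 ground library) to mt-Co1, and mt-Atp8 (-0.21, edgeR adjusted p = 0.625) did not pass. Against naive cells 5 of these 7 fell, of which mt-Cytb (-0.51), for the electron-carrying subunit of complex III, and mt-Nd4 (-0.47) held on leaving out any library. The calls of mt-Nd1 (-0.40), mt-Nd6 (-0.33) and mt-Co1 (-0.36) did not, being lost without any of 4, 5 and 7 libraries.

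In EpiSCs against EPL cells, 7 of the 13 mitochondrial genes rose (53.8%) and none fell (0 at an unadjusted p below 0.05, 0 in DESeq2), against 39.1% of all tested genes higher and 31.3% lower. Their median was 0.47, and 0.67 on total-count scaling, on which 10 rose (76.9%) where 48.1% of all genes did. mt-Nd5 had 2762, 2783 and 2467 CPM in EpiSCs against 1168, 1373 and 1550 CPM in EPL cells, with every EpiSC library higher, a difference of 0.97 ± 0.18 (edgeR adjusted p = 4.68e-05). mt-Nd2 had 1864, 2038 and 1794 CPM in EpiSCs against 919.6, 1112 and 1246 CPM in EPL cells, a difference of 0.80 ± 0.18 (edgeR adjusted p = 5.27e-04). mt-Nd6, the only one of the set on the minus strand, rose by 0.58, and mt-Cytb rose by 0.60, not called without the first A2 EPL library (0.46, edgeR adjusted p = 0.0561). mt-Nd4 (0.47) lost its call without the first A2 EPL (0.33), second A2 EPL (0.49), second EpiSC (0.43) or the third EpiSC library (0.44). mt-Co1 (0.34, edgeR adjusted p = 0.127) and mt-Nd1 (0.23, edgeR adjusted p = 0.309) did not pass.

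The largest mitochondrial rises in EpiSCs came from the ATP synthase genes and were uneven. mt-Atp8 had 28.2, 26 and 7.96 CPM in EpiSCs against 6.91, 7.09 and 8.09 CPM in EPL cells, a difference of 1.49 ± 0.49 (edgeR adjusted p = 0.00936). mt-Atp6, which overlaps it by 43 bases, had 160.4, 73.3 and 38.4 CPM in EpiSCs against 41.8, 46.1 and 48.2 CPM in EPL cells, a difference of 0.997 ± 0.33 (edgeR adjusted p = 0.0109). In both genes the third EpiSC library lay within or below the EPL range, and without the first EpiSC library mt-Atp8 was at 1.20 (edgeR adjusted p = 0.05001, not called) and mt-Atp6 at 0.29 (edgeR adjusted p = 0.353). One library of another group was also high in mt-Atp8, the third D3 naive library with 42.8 CPM against 9.72 and 6.26 CPM in the other D3 naive libraries.

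Against ground cells, EpiSCs had 3 of 13 mitochondrial genes lower (23.1%, below the 34.1% of all tested genes) and none higher, where 39.1% of all genes were higher, with 1 higher at an unadjusted p below 0.05 and 0 higher in DESeq2. The 3 were mt-Co2 (-0.92), mt-Nd3 (-0.75) and mt-Co1 (-0.50), and the median of the 13 was -0.05. None of these calls held without the high second A2 ground library, when mt-Co2 was at -0.41, mt-Nd3 at -0.41 and mt-Co1 at -0.26, and 2 genes were called higher. mt-Co1 also lost its call without the first (-0.50) or the third EpiSC library (-0.48), 2 genes were called higher without the third, and 5 genes were lower without the third A2 ground library. On total-count scaling 4 were higher and 1 lower. Summed with its chromosome 1 copy, mt-Nd3 was lower by -1.02 ± 0.18 (edgeR adjusted p = 1.92e-05), at 20.5 to 33.5 CPM in EpiSCs against 44.1 to 71.0 CPM in A2 ground cells. The sums for mt-Co1 (-0.51, edgeR adjusted p = 0.0254) and mt-Co2 (-0.45, edgeR adjusted p = 0.0476) were also called. The sums were not refitted with libraries left out.

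Summing each gene with its chromosome 1 copy, where it had one, changed some of the genes whose copies held more counts. For EPL against ground cells mt-Co2 went to -0.70 ± 0.14 (edgeR adjusted p = 1.77e-04), where the gene alone had -1.03 ± 0.20, and mt-Co3 to -0.28 ± 0.14 (edgeR adjusted p = 0.0779), where the gene alone had -0.56 ± 0.22 and was called, though at -0.23 and not called without the second A2 ground library. For EpiSCs against EPL cells mt-Atp6 went to 0.21 ± 0.19 (edgeR adjusted p = 0.32). In the same comparison mt-Nd3 became lower, -0.48 ± 0.18 (edgeR adjusted p = 0.0208), and mt-Nd4l higher, 0.81 ± 0.23 (edgeR adjusted p = 0.0032). For mt-Co1 the summed value was -0.80 ± 0.14 in EPL against ground cells, where the gene alone had -0.81 ± 0.14.

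**Figure D5:**
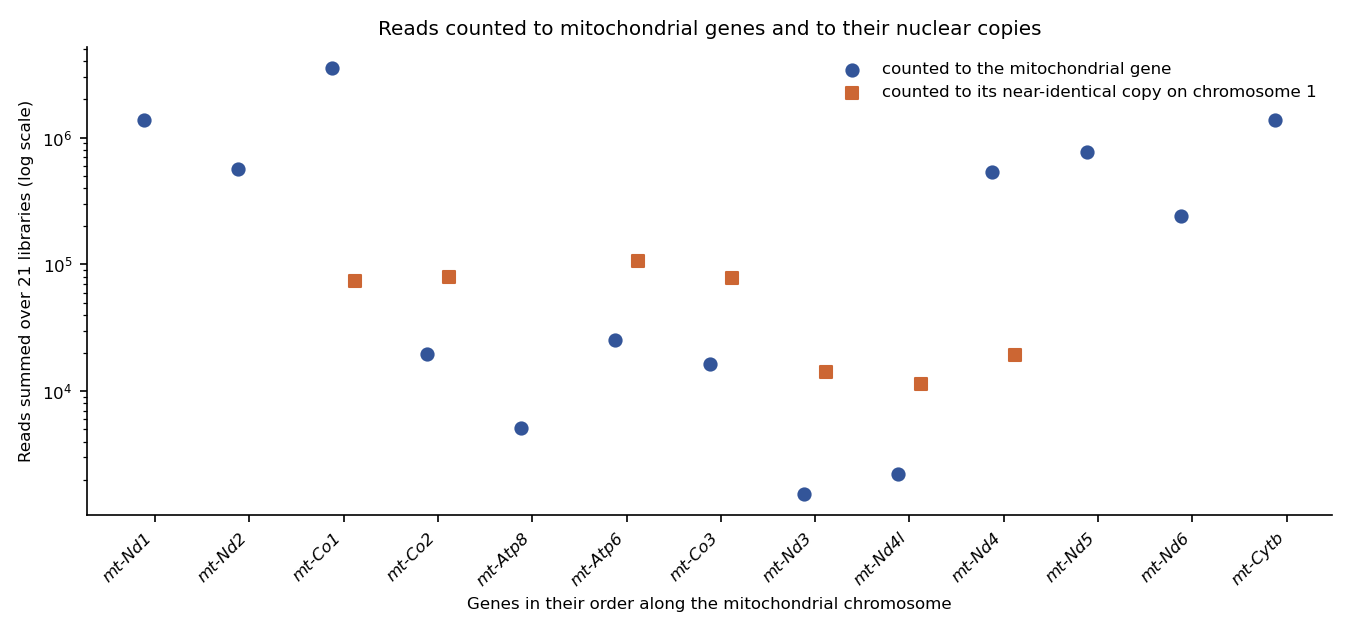
Reads summed over the 21 libraries, on a log axis, that were counted to each mitochondrial gene (circles) and to its near-identical copy on chromosome 1 (squares), with genes in their order along the mitochondrial chromosome. The squares lie below the circles for mt-Co1 (74202 against 3522954 reads) and mt-Nd4, whose copies there are partial. They lie above the circles for mt-Co2, mt-Atp6, mt-Co3, mt-Nd3 and mt-Nd4l.

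Fewer of the genes were called between the lines than in any stage comparison that averaged the lines or involved EpiSCs. Over the ground, naive and EPL stages, 15 of 95 nuclear genes were higher in D3 than in A2 (15.8%) and 9 lower (9.47%), against 20% of all tested genes higher and 20.7% lower. Of the mitochondrial genes 1 was lower and none higher (0 at an unadjusted p below 0.05, 0 in DESeq2), the one being mt-Nd4l (-0.64). Summed with its chromosome 1 copy, which held more counts, mt-Nd4l was at -0.34 (edgeR adjusted p = 0.0472). On such sums mt-Nd3 was also lower (-0.35, edgeR adjusted p = 0.00823). Without the second D3 naive library, 12 nuclear genes were higher and 15 lower. Ndufs1 (-0.25) and Ndufa10 (-0.27) were lower in D3, and Ndufb7 (0.42), Ndufb11b (0.45) and Uqcrc1 (0.18) higher. Cox5b, next to the catalytic core of complex IV, had 142, 134 and 157 CPM in D3 ground and 196, 197 and 212 CPM in A2 ground cells, and Sdhc 147, 132 and 150.1 CPM in D3 ground and 179, 181 and 188 CPM in A2 ground cells. In both genes every D3 ground library was lower, and over the 3 stages Cox5b differed by -0.48 ± 0.07 and Sdhc by -0.38 ± 0.06 (edgeR adjusted p = 6.21e-06 and 2.33e-05).

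Whether the lines changed alike between stages was tested by interaction terms, D3 minus A2. For EPL against naive cells 4 of the 108 genes passed, against 12.7% of all tested genes, and for naive against ground cells 1 passed, against 3.06%. The values leaned one way all the same. For EPL against naive cells the nuclear median was -0.13, with 74 of 95 below 0, against 0.02 over all genes. For naive against ground cells it was 0.14, with 14 of 95 below 0, against 0.01. The high second D3 naive library enters both terms. Cox7a1 fell by 1.63 in D3 and by 0.59 in A2 after inhibitor withdrawal, a difference of -1.04 ± 0.26 (edgeR adjusted p = 0.0278). For EPL against naive cells Cox6b2 was at 0.29 in D3 and 0.86 in A2, an interaction of -0.57 ± 0.17 (edgeR adjusted p = 0.0307). Cox7b2 was at -1.22 in D3 and 0.18 in A2, Ndufb10 at -0.50 in D3 and -0.02 in A2, and Ndufs7 at -0.51 in D3 and -0.02 in A2. The interactions of these 3 were -1.40, -0.48 and -0.49. Each of the 5 calls was lost without at least 6 of the libraries left out in turn, and without the second D3 naive library none of the 4 passed.

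The wider machinery of the chain was described by 7 lists chosen with earlier results of these data known. Their counts stand beside all tested genes, of which 31.7% were higher and 31.8% lower in naive against ground cells, 33.1% higher and 33.2% lower in EPL against ground cells, and 39.1% higher and 31.3% lower in EpiSCs against EPL cells. Genes that transcribe and replicate the mitochondrial genome, 16 in all, went 8 higher and 3 lower in naive against ground cells and 8 higher and 4 lower in EPL against ground cells, with medians of 0.14 and 0.15. Top1mt, the mitochondrial topoisomerase, rose by 0.90 and Ssbp1, which coats single-stranded DNA, by 0.51 in EPL against ground cells, the same comparison in which 11 mitochondrial messages fell. In EpiSCs against EPL cells, the comparison in which 7 mitochondrial messages rose, 12 of the 16 fell, against 31.3% of all genes (median -0.44), among them the RNA polymerase Polrmt (-0.73), Mterf4 (-0.90) and Mgme1 (-0.83). The list for mitochondrial RNA processing and stability, 18 genes, likewise had 14 lower in EpiSCs, led by Fastkd2 (-1.23), the tRNA 3'-processing enzyme Elac2 (-1.11) and Tbrg4 (-1.01). In naive against ground cells 4 of these were higher and 5 lower, with Grsf1, an RNA-binding protein of mitochondrial RNA granules, at -1.57.

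Among 10 tested regulators of respiratory genes, 2 were higher and 7 lower in EpiSCs against EPL cells, where 39.1% of all genes were higher and 31.3% lower, with the coactivators Ppargc1b (-1.46) and Pprc1 (-0.97) and the nuclear receptor Esrrb (-0.94) lower. In EPL against ground cells 3 were higher and 4 lower, with Esrrb at -1.33 and Ppargc1b at 0.56. Assembly factors outside the naming rule, 35 tested, had 10 higher and 12 lower in EPL against ground cells and 5 higher and 13 lower in EpiSCs against EPL cells, and the shares that were lower were near those of all genes, 33.2% and 31.3%. Ecsit, which acts in complex I assembly, rose by 0.87 in EPL cells and fell by 0.85 in EpiSCs, where Sco1, a copper chaperone of complex IV, fell by 0.88. Of 17 cytochrome c and coenzyme Q genes, 6 rose and 6 fell in EpiSCs against EPL cells, also near the shares of all genes, the largest rise being Cyct, the testis form of cytochrome c (2.63).

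Tricarboxylic acid cycle genes, 19 in all, had 7 higher and 7 lower in EPL against ground cells, near the 33.1% and 33.2% of all genes, and 4 higher and 11 lower in EpiSCs against EPL cells, against 39.1% and 31.3%. Idh2, the NADP-dependent mitochondrial isocitrate dehydrogenase, was at -1.06 in naive and -0.82 in EPL against ground cells and rose by 0.73 in EpiSCs against EPL cells. Hypoxia-responsive genes, 15 tested, had 8 higher and 1 lower in naive and 10 higher and 2 lower in EPL against ground cells, where 31.7% and 33.1% of all genes were higher, the direction taken by Ndufa4l2 and Cox4i2. Pdk1, which restrains entry of pyruvate into the cycle, rose by 2.12 in naive and 2.35 in EPL cells, and Bnip3, a receptor for mitochondrial autophagy, by 2.13 in naive and 2.75 in EPL cells. In EpiSCs against EPL cells 8 were higher and 3 lower, with Adm at 4.28 and Ldha, lactate dehydrogenase A, at -1.74. The labels give no oxygen level for the cultures.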

How the data were processed

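The data are RNA-seq libraries of 21 mouse samples, and the authors deposited whole-number counts per gene. Per the submitters' processing notes, reads were aligned to GRCm38 with HISAT2 and counted with featureCounts, with versions and strand setting not given. TruSeq RNA v2, per the labels' protocols, does not mark the strand, so overlapping genes on opposite strands cannot be told apart.

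From the counts, edgeR 4.0.16 in R 4.3.3 fitted 7 group means to all 21 libraries (TMM scaling, filterByExpr with a minimum of 10 counts, quasi-likelihood test), with Benjamini-Hochberg adjustment over 16575 genes and calls at an adjusted p below 0.05. D3 and A2 were averaged except where named. The fit was tested on simulated data. DESeq2 1.42.0, other scalings and filters, each line alone, a replicate block, leaving out each library and 2 alternatives added after seeing the data (summing mitochondrial genes with their chromosome 1 copies, and leaving out nuclear genes with many copy reads) were tried. Copies were sought among annotated pseudogenes with BLAST 2.17.0. All 39396 gene IDs matched GENCODE M21. The series' design text calls the samples paired without saying how, and libraries were treated as unpaired. No libraries were duplicates.

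The members and lists were chosen with earlier results of these data known. The text names, for each comparison, the 2 largest called rises and falls per complex without overlap between libraries and at 5 CPM or more, 10 subunits followed at every step, all isoform pairs, the largest mitochondrial changes and up to 3 called genes per list. One gene that this rule names is not reported here. Outside that rule, Uqcr10 after inhibitor withdrawal, Sdhd, Cox5b, Sdhc and Ndufb11b between lines, the 5 genes of the line interactions and further mitochondrial genes were named after their values were seen.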

Additional observations from a re-analysis of the deposited data

Results flagged for a closer look

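Stage differences that were unequal between the lines were picked out for 5 genes by the edgeR interaction test, D3 minus A2 on the log2 scale. For naive against ground cells, Cox7a1 had an interaction of -1.04, falling in both lines and by more in D3. For EPL against naive cells, Cox7b2 had -1.40, Cox6b2 -0.57, Ndufs7 -0.49 and Ndufb10 -0.48. Each call was lost without at least 6 of the libraries left out in turn. Single outlying libraries were not tested for in groups of 3, and libraries that stood apart are given by their rank above.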

How the results depend on the processing

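Of 18125 single-gene values recomputed, 17138 kept their side of the threshold, 658 fell below it, 325 passed it and 4 were counted as reversed. Values not called in either fit were counted among the 17138 even where their sign changed. An example is Cox5a for EpiSCs against EPL cells, at -0.16 and, on total-count scaling, at 0.04. The reversed values were Cox7b2 for EPL against naive cells in A2 alone (0.18) and, on total-count scaling, EpiSCs against ground cells for Atp5d (0.0357), Atp5g3 (0.0233) and Ndufaf1 (0.0166). The causes were not tested.

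For naive against ground cells, 9 nuclear genes were higher in A2 alone, and 11 were lower on total-count scaling and 8 in D3 alone. Without the low-count filter 1 mitochondrial gene was higher, and 0 were lower in A2 alone (5 at an unadjusted p below 0.05) and 2 in D3 alone. For EPL against ground cells 10 nuclear genes were higher on total-count scaling. For EPL against naive cells, 1 nuclear gene was higher and 12 lower in A2 alone, and 0 were higher in D3 alone. The mitochondrial genes lower were 0 in A2 (5 at an unadjusted p below 0.05) and 3 in D3. For EpiSCs against EPL cells, total-count scaling gave 10 nuclear genes higher and 25 lower, no filter gave 12 mitochondrial genes higher, and summing copies gave 1 lower. For EpiSCs against ground cells, total-count scaling gave 45 nuclear genes lower, 4 mitochondrial genes higher and 1 lower, no filter gave 4 higher and 5 lower, and fitting those groups only gave 1 higher. Between lines, no filter gave 24 nuclear genes higher, 1 mitochondrial gene higher and 5 lower, and summing copies 2 lower. The interactions for EPL against naive cells numbered 7 with no filter and 1 with those groups only. Those for naive against ground cells numbered 2 with RLE scaling, 5 with no filter and 2 in DESeq2.

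Leaving out each library in turn gave, for nuclear genes higher and lower, 15 to 25 and 11 to 31 in naive against ground, 5 to 7 and 37 to 49 in EPL against ground, 2 to 4 and 31 to 55 in EPL against naive, 6 to 7 and 35 to 54 in EpiSC against EPL, 6 to 8 and 63 to 71 in EpiSC against ground cells, and 10 to 20 and 7 to 15 between lines. Mitochondrial genes higher and lower were 0 to 1 and 2 to 6 in naive against ground, 4 to 10 lower in EPL against naive, 10 to 11 lower in EPL against ground, 5 to 7 higher in EpiSC against EPL, 0 to 2 and 0 to 5 in EpiSC against ground cells, and 1 to 2 lower between lines, where the third A2 ground library gave the 2. Interactions ranged from 0 to 6 for EPL against naive and 0 to 2 for naive against ground cells. The first were 0 without A2 naive 3, A2 EPL 3, D3 naive 2 or D3 EPL 1 and 1 without A2 naive 1, A2 EPL 1 or D3 EPL 2. The second were 0 without A2 ground 2, A2 naive 3, D3 ground 2 or D3 ground 3 and 2 without A2 ground 3 or D3 naive 3. No share of all tested genes is given here beside the leave-out counts.

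With the replicate number as a block, 2 interactions passed for naive against ground cells, and no other count moved by more than 1.5 times. Same-numbered libraries of different groups deviated together (correlation above 0.1) in 8 of 63 pairs, so how the samples were paired could not be told from the numbers.

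Genes with few reads, such as Cox8c and Cox4i2, limit what 3 libraries a group can show.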
